A study of Mus musculus with 8 samples.

Results

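Gene expression at baseline is described here for the dental pulp of mandibular first molars taken at postnatal day 7 (P7) from Osterix-Cre control mice. These controls are 4 of the 8 samples of the series, and they were chosen by their genotype label alone. The other samples, from Osterix-Cre:Tgfbr2f/f mice, were not used. The controls were C57BL/6J mice that carried the Osterix-Cre transgene, whose promoter drives expression in mesenchyme of bones and teeth, and the labels name no treatment. Per the study's methods, the left and right molars were combined and the pulp was freed from mineralized tissue and enamel organ. No pulp without the Cre transgene was analysed here. The libraries came from 1 ng of RNA, amplified as cDNA before sequencing, and are named by the sample number in their titles (49, 50, 51 and 52). The titles also carry a second number, which is 4 for both libraries 49 and 50, 2 for library 51 and 5 for library 52, and the sources used here do not say what it marks. No label ties a library to an animal or litter, so the spread given below is that between samples. Between 9511517 and 10227345 reads per library fell on the 12148 listed genes. Per the methods, the authors kept genes by the CLEAR workflow for low-input RNA-Seq, so a gene that is not listed is not thereby shown to be silent.

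The dental pulp is the soft core of the tooth. Its outer layer is formed by odontoblasts, which secrete a collagen-rich matrix and the phosphoproteins on which dentin mineralizes. Beneath them lie mesenchymal cells, vessels, macrophages and, as the tooth matures, sensory axons. The neighbouring enamel organ is an epithelium, and its ameloblasts secrete amelogenin and the other enamel proteins. Levels of different genes were compared per length, as reads per exon length scaled to a total of 1000000 over the listed genes (TPM). These levels depend on the length used: with the median transcript length in place of the union of exons, 17 of 26 marker list sums were over 1.5 times lower and 1 was over 1.5 times higher. A difference between libraries is given on the log2 scale of the deposited values, which are log2 reads per 1000000 reads. With 4 libraries an exact two-sided sign-flip test cannot go below p = 0.125, so levels and spreads are given as descriptions without p-values.

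The 6 genes set as markers of the tissue were all listed, at ranks from 1 to 4408 by mean TPM. *Col1a1*, a chain of type I collagen, stood at 29493 ± 9560.1 TPM (SD, n = 4 here and below). *Dspp*, the precursor of the main dentin phosphoproteins and the defining odontoblast gene, was at rank 6 with 8192 ± 4252 TPM. *Bglap*, which encodes osteocalcin, was at rank 3 with 14196 ± 4687 TPM. *Amelx*, which encodes amelogenin, was at rank 4 with 13773 ± 14896 TPM, with an SD above its mean. With the median transcript length *Amelx* was at 5324 TPM, and with no length at 4399 reads per 1000000 reads. *Nes*, an intermediate filament gene of odontoblasts, was at rank 341 with 447 ± 162 TPM, and *Pecam1*, a gene of endothelial cells, was at rank 4408 with 34.7 ± 5.37 TPM. The odontoblast label of the tissue was thus met by *Dspp* in every library, while the enamel gene *Amelx* was also among the leading genes in every library, at rank 10 or better. In these bulk samples, fewer cells of a type and less RNA per cell cannot be told apart.

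The stretches before the start of several leading or variable genes are shown because 4 of them are leading genes that hold an AT-rich box near the start, and 2 are interferon-induced genes that were high in a single library and hold a repeated element. Capitals mark a TATAAA or TTTAAA that begins between 40 and 20 bases before the start in the first 4 sequences and GAAANNGAAA, on either strand, in the last 2. Each is 150 bases ending just before the RefSeq start, read 5′ to 3′ in the direction of transcription (GRCm38.p6).
Bglap, chr3:88384467-88384616, minus strand: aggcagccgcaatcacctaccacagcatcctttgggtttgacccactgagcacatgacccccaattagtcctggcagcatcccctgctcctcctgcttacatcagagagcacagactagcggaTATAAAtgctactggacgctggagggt
Amelx, chrX:169187210-169187359, minus strand: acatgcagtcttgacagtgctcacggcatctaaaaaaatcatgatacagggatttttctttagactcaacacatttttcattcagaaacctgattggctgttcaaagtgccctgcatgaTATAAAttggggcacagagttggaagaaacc
Ambn, chr5:88455841-88455990, plus strand: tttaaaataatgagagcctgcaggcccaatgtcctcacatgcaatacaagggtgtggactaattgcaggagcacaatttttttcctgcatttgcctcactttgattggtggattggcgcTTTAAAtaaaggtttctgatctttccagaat
Gpx3, chr11:54902704-54902853, plus strand: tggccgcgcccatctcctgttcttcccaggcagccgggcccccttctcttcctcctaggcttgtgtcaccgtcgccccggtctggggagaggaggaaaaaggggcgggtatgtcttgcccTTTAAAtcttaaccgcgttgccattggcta
Ifit1, chr19:34640739-34640888, plus strand: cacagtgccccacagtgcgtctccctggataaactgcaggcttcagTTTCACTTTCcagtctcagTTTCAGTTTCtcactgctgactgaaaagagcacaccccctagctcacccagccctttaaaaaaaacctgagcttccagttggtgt
Isg15, chr4:156200819-156200968, minus strand: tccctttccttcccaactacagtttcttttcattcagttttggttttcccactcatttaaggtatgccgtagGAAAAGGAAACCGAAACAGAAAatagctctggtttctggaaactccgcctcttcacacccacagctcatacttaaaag

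A TATAAA or TTTAAA beginning between 40 and 20 bases before the start, on the coding strand, was present in 4 of the 17 leading genes with a sequence (23.5%), namely *Bglap*, *Amelx*, *Ambn* and *Gpx3*. Of the 9556 listed genes with a sequence, 233 (2.44%) held it. It began 27 bases before the start of *Bglap* and 31 before that of *Amelx* and *Ambn*. It was found in 1 of 58 ribosomal protein genes with a sequence (1.72%). These matches are descriptions of the letters and not evidence of use.

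Transcripts were concentrated on few genes. The 10 genes with the most reads took 15.7%, 10.8%, 14.5% and 18.6% of the reads in libraries 49, 50, 51 and 52, or 14.9 ± 3.23%. The 100 with the most took 27.1 ± 2.94% and the 1000 with the most 55.04 ± 1.82%. *Col1a1* alone took between 3.90% and 7.96% of the reads. Library 50 had the lowest share and library 52 the highest at each of these steps. At the other end, the median gene stood at 21.4 TPM, and 1773 genes (14.6% of those listed) reached 100 TPM and together held 74.1% of the TPM. Only 112 genes reached 1000 TPM. Every listed gene had reads in at least 1 control library, 3 genes had none in at least 1 of them, and 11968 had 10 or more reads in all 4. Of the listed genes 11676 were protein-coding, and they held 98.97% of the reads. No mitochondrially encoded gene was listed.

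The 25 leading genes by mean TPM were led by matrix and mineralization genes. *Col1a1* was first in every library except 49, where *Amelx* led. In libraries 49, 50, 51 and 52 *Col1a1* was at 26137, 18990.0, 31104 and 41741 TPM. *Sparc*, which encodes the collagen-binding protein osteonectin, followed at 16939, 12870.1, 17208 and 24359.7 TPM. Both were lowest in library 50 and highest in library 52. *Col1a2*, the partner chain of *Col1a1*, was at rank 10 with 5510.1, 3756, 6153 and 9681 TPM, with the same lowest and highest libraries. The ratio of *Col1a1* to *Col1a2* TPM stayed between 4.31 and 5.06, so the chains varied together far more closely than either did alone.

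*Bglap* was at 17690.4, 9629, 10717 and 18749 TPM, and *Bglap2*, its near-identical neighbour on chromosome 3, at 9607, 4589, 4996 and 9312 TPM. Libraries 49 and 52 were high and libraries 50 and 51 low for both. Their ratio was 2.02 ± 0.134, but reads shared by the copies may have been split between them or lost, so both levels are uncertain. *Gpx3*, a secreted glutathione peroxidase, showed another order, with 4228, 8106, 8619 and 4559 TPM. Libraries 50 and 51 were the high ones there.

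Among the other leading genes, *Serpinf1*, which encodes the secreted factor PEDF, was at 4891 ± 1062 TPM and the small proteoglycan gene *Lum* at 4979 ± 698 TPM. *Ftl1*, the ferritin light chain, was at 5584 ± 418 TPM, the membrane protein gene *Itm2b* at 4925 ± 623 TPM and the lysosomal membrane gene *Laptm4a* at 4413 ± 555 TPM. *Eef1a1*, a translation elongation factor, *Ubb*, a ubiquitin gene, and *Apoe*, the lipid carrier, lay between 3586 and 3936 mean TPM. *Id3*, an inhibitor of basic helix-loop-helix factors, *Anxa5*, an annexin, and *Ppic*, a cyclophilin, lay between 3329 and 3489 mean TPM. The ribosomal protein gene *Rpl36* was at 3317 ± 710.4 TPM. Of these 25 genes 19 were among the first 25 in each library and all 25 among the first 50. At each of the 25 steps down the order to the next gene the ranges of the neighbours overlapped, so the order within it is not resolved by 4 libraries.

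Some of the leading names call for care. *Gm15564* is annotated as antisense at chr16:35966752-35983230 and was at rank 5 with 10273, 10783, 6875 and 7479 TPM. *Lars2*, the mitochondrial leucyl-tRNA synthetase at chr9:123366927-123462666, was at 4344, 4459, 2927 and 3134 TPM. The TPM of *Gm15564* was 2.35 to 2.42 times that of *Lars2* in every library, the narrowest range among the 10 gene ratios computed, although the genes lie on different chromosomes. *Mir6236*, annotated as a microRNA gene of 123 bases at chr9:110281287-110281409, was at 3241, 4717, 3093 and 3039.8 TPM, and its high TPM rests on 1071 to 1754 reads divided by that short length. Together the 3 took 1.52 ± 0.404% of the reads. Whether their reads came from these genes was not tested.

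**Figure D1:**
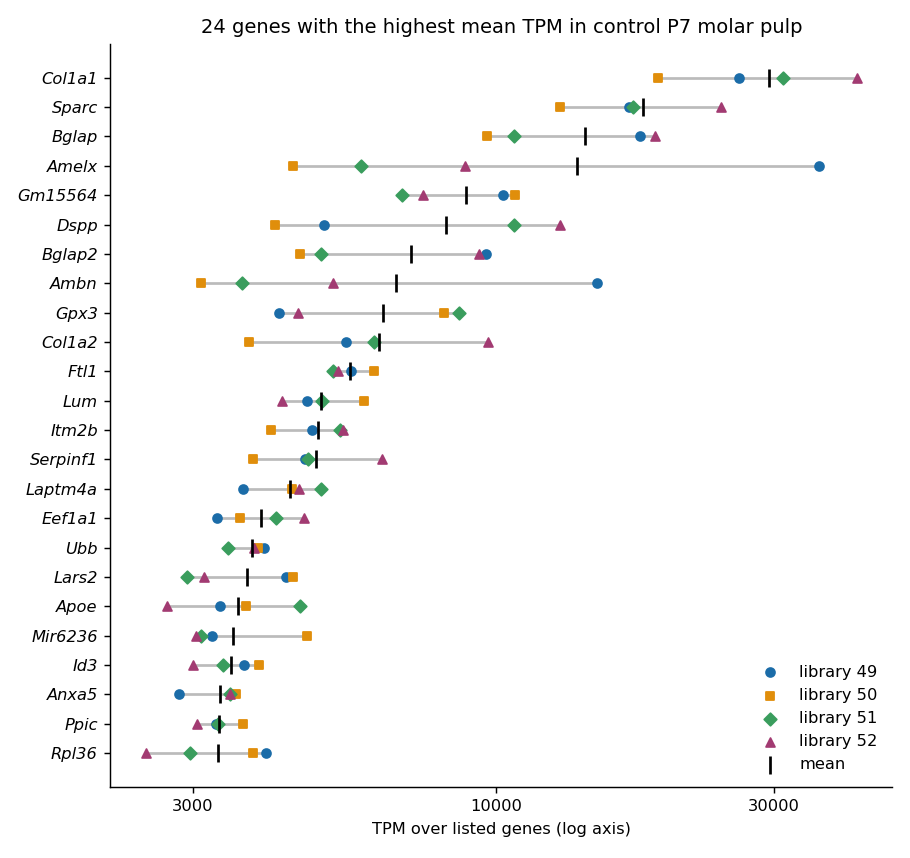
TPM over listed genes (log axis) of the 24 genes with the highest mean TPM, with a point for each of the 4 control libraries, a black tick at the mean and a grey line over the range. *Col1a1* is highest on average, *Amelx* and *Ambn* stretch to the right through library 49, and the range of each gene overlaps that of the next.

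Reads on collagen genes were mostly those of the type I chains. The 35 listed collagen chains took 3.97 ± 1.23% of the TPM and 9.14 ± 2.56% of the reads, and *Col1a1* and *Col1a2* alone took 8.27 ± 2.50% of the reads. They were the 2 collagen genes among the 100 leading genes. With the median length of a gene's transcripts the TPM share was 15.2%, with *Col1a1* alone at 134950.1 TPM, so this value depends on the length used. After the type I chains came *Col9a2* (664 ± 299 TPM) and *Col11a2* (659.7 ± 287 TPM), chains known from cartilage, then *Col3a1* (459 ± 126 TPM), *Col5a2* (322 ± 118 TPM), *Col6a1* (266 ± 55.8 TPM) and *Col5a1* (259.7 ± 30.1 TPM). Of the 35 chains 13 reached 100 TPM. *Col2a1*, the defining cartilage chain, was at 3.73 ± 1.56 TPM, and *Acan*, *Matn1*, *Comp*, *Col10a1* and *Cnmd* of the cartilage list were not listed.

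All 8 odontoblast genes were listed. Beside *Dspp*, *Bglap* and *Nes*, they were *Phex*, a peptidase gene linked to phosphate balance, at 359 ± 161 TPM, *Wnt10a*, a Wnt ligand, at 309.6 ± 77.8 TPM, *Smpd3*, a sphingomyelinase gene needed for mineralization, at 112 ± 34.3 TPM, *Dmp1*, which encodes an acidic dentin matrix protein, at 94.1 ± 85.6 TPM, and the transcription factor gene *Sall1* at 16.4 ± 4.99 TPM. Their summed level was 23713, 14662, 23102 and 33431 TPM in libraries 49, 50, 51 and 52. Library 50 was lowest and library 52 highest. *Bglap* alone was 14196 of the mean sum of 23727 TPM, and 17690 of the 23713 TPM in library 49, so the sum mostly follows *Bglap*. These levels depend on the gene length used: with the median transcript length the mean was 6675 TPM for *Bglap*, 2423 TPM for *Dspp*, 143 TPM for *Nes* and 9654 TPM for the sum. With no length, in reads per 1000000 reads, *Bglap* was at 2703 and *Dspp* at 10943, so their order turned.

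*Dspp* was at 5046, 4162, 10701 and 12859.9 TPM, so both number 4 libraries lay below both others. *Dmp1* was at 24.4, 50.6, 84.3 and 217 TPM and did not keep the order of *Dspp* within the number 4 pair. Library 52 held 8.91 times the *Dmp1* TPM of library 49, against 3.09 times between the highest and lowest libraries for *Dspp*. *Nes* was at 293, 320.3, 580.4 and 594 TPM, with the number 4 libraries again low. *Phex* was at 278, 182, 435 and 542 TPM, in the order of *Dspp*.

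For 7 of the 8 odontoblast genes, all except *Bglap*, both number 4 libraries were below both others, as for 18.9% of all 12148 listed genes. Counting either direction, 47.3% of the listed genes had the number 4 libraries on one side of the others. The second number and any other property that libraries 49 and 50 share cannot be told apart, and its part in these levels was not tested.

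Genes of dental mesenchyme identity varied about as much as the median gene. All 16 transcription factor genes of that list were present, and their summed level was 2937 ± 349 TPM. The median SD of its members was 0.25 log2, from 0.13 to 0.75 log2, against 0.25 log2 over all listed genes and 0.48 log2 for the odontoblast list. The homeobox genes *Msx1* (745 ± 142 TPM), *Msx2* (562 ± 52.4 TPM), *Dlx3* (524 ± 105 TPM) and *Barx1* (421 ± 58.2 TPM), which act in tooth mesenchyme and tooth shape, were the highest, and 7 of the 16 reached 100 TPM. *Tgfbr2*, the receptor gene deleted in the other genotype of the series, was at 52.6, 76.7, 82.2 and 76.9 TPM in these controls.

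Genes of bone-forming cells were uneven, with 4 of 7 listed and 2 of those, *Bglap2* and *Alpl*, at or above 100 TPM. *Alpl*, tissue-nonspecific alkaline phosphatase, was at 1465, 2146, 2105 and 1816 TPM. *Ifitm5*, an osteoblast membrane gene, was at 84.8 ± 19.2 TPM and *Ibsp*, bone sialoprotein, at 48.9 ± 13.4 TPM. The osteocyte genes *Sost* and *Mepe* and the osteopontin gene *Spp1* were not listed in the table. Of the osteoclast list, *Ctsk*, a collagen-degrading cathepsin, was at 503 ± 92.2 TPM, but *Acp5*, the tartrate-resistant phosphatase, was at 22.7 ± 6.05 TPM and *Mmp9* at 7.84 ± 6.61 TPM, and *Ocstamp*, *Dcstamp*, *Calcr* and *Atp6v0d2* were not listed. The follicle and ligament list summed to 27.2 ± 4.93 TPM over *Aspn*, *Mkx* and *Bmp3*, and the tendon and ligament genes *Tnmd* and *Scx* were not listed. *Tac2*, which encodes a tachykinin peptide precursor and is named here after its values were seen, was at 2636, 1430.1, 2407 and 2744 TPM, rank 33.

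All 7 enamel matrix genes were present, and they took 2.33%, 0.397%, 0.501% and 0.705% of the reads in libraries 49, 50, 51 and 52. The mean was 0.983 ± 0.906%, and without library 49 it was 0.534%. *Amelx* was at 35949, 4459.6, 5851 and 8834 TPM. *Ambn*, which encodes ameloblastin, was at 14868, 3104, 3647 and 5239 TPM. Library 49 was far above the other 3 for both, and without it the mean of *Amelx* was 6382 TPM. The summed level of the 7 genes was 22137 TPM on average, 11848 TPM without library 49, and 8147 TPM with the median transcript length.

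*Enam*, the enamelin gene, was at 393, 48.4, 89.1 and 139.7 TPM. *Odam*, an ameloblast-associated gene, was at 333, 15.9, 84.2 and 37.9 TPM. *Amtn*, which encodes amelotin, was at 245, 8.74, 44.8 and 28.0 TPM. These were all highest in library 49 and lowest in library 50.

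The enamel proteases varied less. *Mmp20*, which cleaves amelogenin during secretion, was at 687, 446, 871 and 1159 TPM, highest in library 52 and lowest in library 50, in the order of *Dspp*. Which cells the *Mmp20* reads came from was not tested. *Klk4*, the protease of enamel maturation, was at 530.3, 393, 465 and 578 TPM, with an SD of 0.24 log2 against 1.40 log2 for *Amelx*. On the log2 scale *Klk4* was at 7.78, 7.26, 7.43 and 7.71, highest in library 49 by a small margin and lowest in library 50, and by log2 value 6 of the 7 enamel matrix genes were highest in library 49, against 24.8% of all listed genes. The ratio of *Amelx* to *Klk4* TPM was 67.8 in library 49 and 11.3 to 15.3 in the others. *Calb1*, a calcium-binding protein gene high in ameloblasts, was at 232, 17.5, 48.5 and 43.6 TPM and again highest in library 49.

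Other epithelial genes varied less than amelogenin, with a median SD of 0.33 log2. By log2 value 6 of the 11 listed members were highest in library 49, against 24.8% of all listed genes, and none in library 50, against 33.7%. The median deviation of the list from each gene's mean was 0.20, -0.34, 0.20 and -0.05 log2 in libraries 49, 50, 51 and 52. The 11 listed of 13 epithelial genes summed to 1039.6, 737, 1112 and 943 TPM in libraries 49, 50, 51 and 52. *Krt14* was at 341, 234, 365 and 285 TPM and *Krt5* at 175, 109, 177 and 146 TPM, both keratins of basal epithelium. *Krt17* (226 ± 44.0 TPM) and *Perp* (168 ± 36.4 TPM), a desmosome-associated gene, completed the highest members, and *Krt15* and *Shh* were not listed. Library 50 was lowest for the list sum, as for the enamel genes, and library 51 was highest on the TPM scale. What share of the enamel RNA came from enamel organ left on the pulp was not tested.

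**Figure D2:**
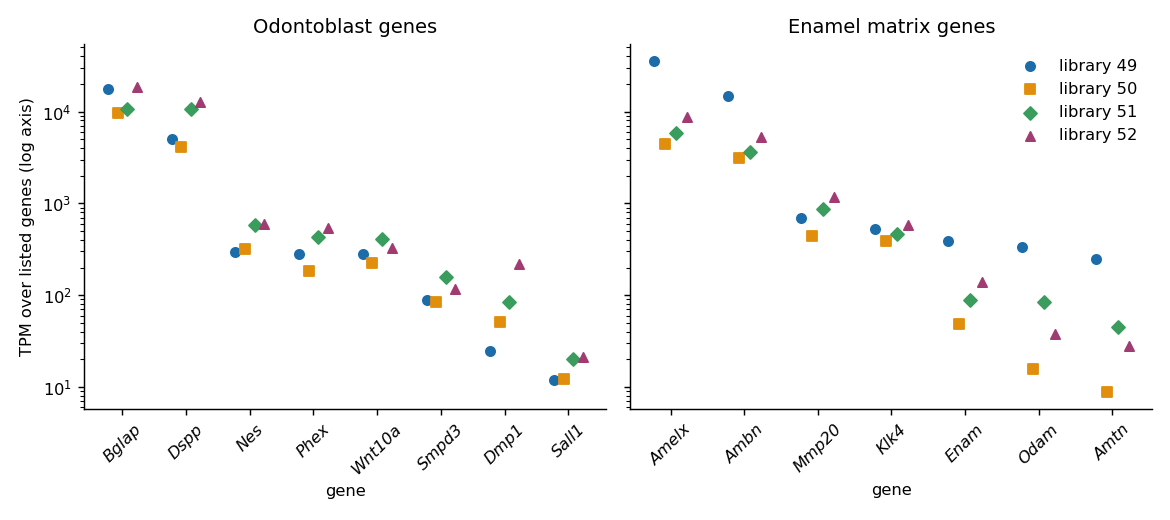
TPM over listed genes (log axis) of the 8 odontoblast genes (left) and the 7 enamel matrix genes (right), with a point for each of the 4 control libraries. Library 49 is the highest for *Amelx*, *Ambn*, *Enam*, *Odam* and *Amtn* but, on this scale, not for *Mmp20* or *Klk4*, and both libraries 49 and 50 lie below the others for 7 odontoblast genes.

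Vessel genes were present at moderate levels. All 14 endothelial genes were listed and summed to 573, 873, 748 and 719.5 TPM in libraries 49, 50, 51 and 52, lowest in library 49 and highest in library 50. *Pecam1* was at 26.8, 36.6, 36.7 and 38.8 TPM. *Plvap*, a gene of fenestrated endothelium, led the list at 220.1 ± 43.4 TPM, followed by *Eng* (93.9 ± 21.2 TPM), a TGFβ co-receptor gene, *Egfl7* (76.8 ± 4.40 TPM) and the junction gene *Esam* (70.0 ± 18.4 TPM). *Plvap* was the list's only gene at or above 100 TPM, and 11 of the 14 endothelial genes were highest in library 50, against 33.7% of all listed genes.

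The mural cells that wrap vessels gave 669 ± 123 TPM over 8 listed of 12 genes. The potassium channel gene *Kcnj8* was highest at 336 ± 85.3 TPM, with *Pdgfrb* (94.7 ± 17.7 TPM), *Rgs5* (90.4 ± 10.7 TPM) and *Mcam* (43.0 ± 5.90 TPM) next, all known from pericytes. The contractile smooth muscle genes *Tagln*, *Myh11*, *Des* and *Cnn1* were not listed. Lymphatic vessel genes were low, at 19.1 mean TPM for *Lyve1* and 6.59 for *Flt4*, and *Prox1* was not listed.

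Nerve-related genes were few. Of the 18 neuron and axon genes, 4 were listed: *Tubb3*, which encodes neuronal β-tubulin, at 85.3, 70.0, 125 and 109 TPM, *Uchl1* at 17.0 ± 3.35 TPM, *Tac1*, the substance P precursor, at 8.71 ± 5.69 TPM, and *Stmn2* at 3.57 ± 2.54 TPM. The neurofilament genes *Nefl*, *Nefm* and *Nefh*, the axonal gene *Prph*, the channel genes *Scn9a*, *Scn10a* and *P2rx3*, the peptide gene *Calca*, and *Snap25*, *Syt1*, *Rbfox3*, *Elavl4* and *Pvalb* were among those not listed.

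Of 15 Schwann cell genes 8 were listed, and 6 of those 8 were under 10 TPM. *Pmp22*, a myelin gene also used by fibroblasts, made up most of the sum at 201 ± 47.0 TPM. *Fabp7* was at 68.0 ± 20.8 TPM and *Ngfr* at 8.98 ± 3.28 TPM. The defining genes *Sox10*, *S100b*, *Erbb3*, *Foxd3*, *Mag* and *Pou3f1* were not listed.

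Macrophage genes were mostly listed. Of the 16 genes 15 were listed, 9 of them at or above 100 TPM, and their sum was 4162, 4542, 5077 and 3681 TPM in libraries 49, 50, 51 and 52. The mean sum was 4365 TPM, and it was 1726 TPM with the median transcript length and 1951 reads per 1000000 reads with no length. *Lyz2*, lysozyme, was at 1114, 1203, 1365 and 1209.6 TPM with an SD of only 0.08 log2. *C1qb*, a complement subunit of resident macrophages, was at 749.6, 897, 999.5 and 609 TPM. The signalling adaptor genes *Tyrobp* (585 ± 62.5 TPM) and *Fcer1g* (503 ± 92.9 TPM) followed, and *Cd163* was not listed. Library 51 was highest for 10 of the 15 macrophage genes, against 24.9% of all listed genes, and library 52 was highest for none, against 16.6%.

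Few genes of other blood lineages were listed. Of 10 neutrophil genes only *S100a8* (19.8 ± 10.2 TPM) was listed, of 14 lymphocyte genes only *Cd79b* (14.5 ± 4.53 TPM), and of 6 mast cell genes only *Kit* (63.1 ± 16.6 TPM), which other cells also use. The T cell genes *Cd3e*, *Cd4* and *Cd8a*, the B cell gene *Cd79a*, the neutrophil genes *S100a9*, *Ly6g* and *Mpo* and the mast cell genes *Cpa3* and *Mcpt4* were among those not listed. *Pf4*, platelet factor 4, which some macrophages also express, was at 731, 862, 707 and 470.0 TPM, whereas *Itga2b*, the platelet integrin, was at 3.41 ± 0.661 TPM.

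Red blood cell genes summed to 5845, 2674, 3199 and 3318 TPM, from 5 listed of 8 genes, and library 49 was the highest. *Hba-a1* was at 2267, 1091, 1544 and 1668 TPM and *Hbb-bs* at 2115, 882, 1007 and 1057 TPM, the α- and β-globin genes. *Hba-a2* (494 ± 280.1 TPM) and *Hbb-bt* (325 ± 140.2 TPM) are close copies of these, so the split between copies is uncertain. *Slc4a1* and *Ahsp* were among those not listed.

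Little sign of other neighbouring tissues was found. *Mylpf* (10.2 ± 4.30 TPM) was the only one of 11 skeletal muscle genes listed, and *Fabp4* (3.83 ± 0.709 TPM) the only one of 5 adipocyte genes. None of the 5 sex-linked genes checked was listed.

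All 18 cell division genes were listed, summing to 369.6 ± 52.8 TPM, and none reached 100 TPM. *Pcna* (66.1 ± 7.51 TPM) and the replication helicase genes *Mcm6* (52.2 ± 11.6 TPM) and *Mcm7* (31.5 ± 4.05 TPM) led, with *Rrm2* (23.8 ± 3.69 TPM) next. Library 52 was highest for none of the 18, against 16.6% of all listed genes, and library 50 for 10 of them, against 33.7%. Of 10 immediate early genes, which can rise within minutes of handling, 8 were listed and summed to 439 ± 41.1 TPM, with *Ier2* at 142 ± 37.2 TPM, *Dusp1* at 94.0 ± 17.1 TPM, *Jun* at 61.6 ± 28.9 TPM and *Junb* at 52.1 ± 14.5 TPM, while *Fosb* and *Atf3* were not listed.

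**Figure D3:**
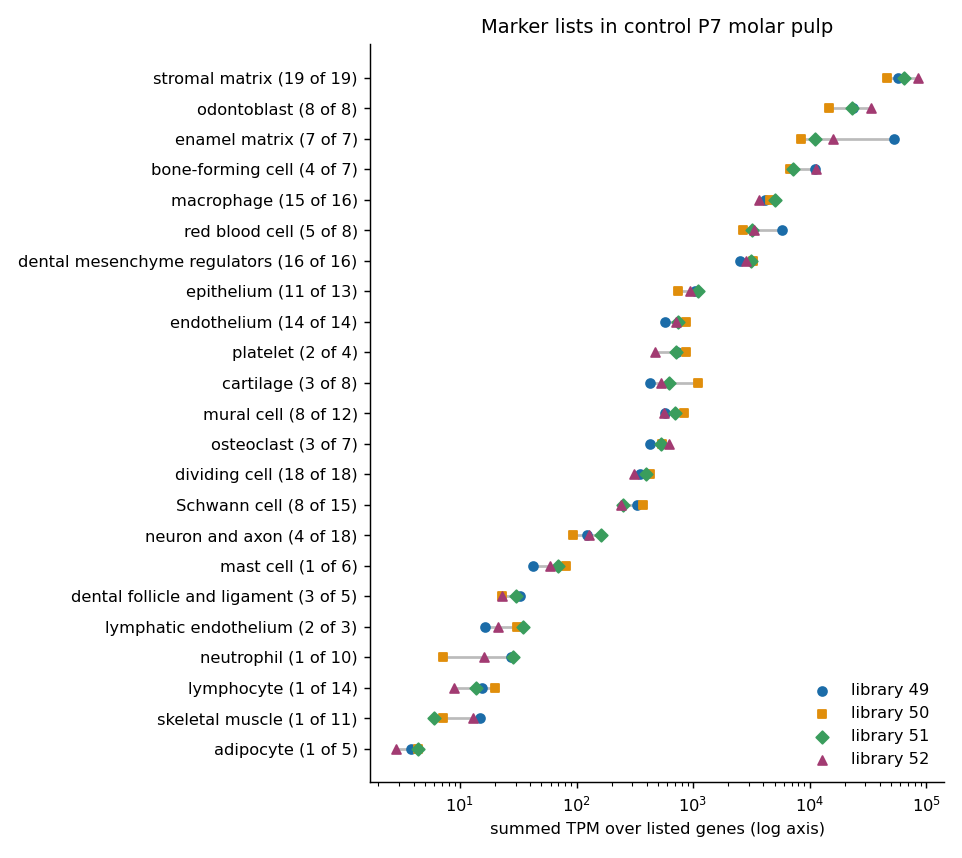
Summed TPM over listed genes (log axis) of 23 marker lists, with a point for each of the 4 control libraries and, in brackets, how many genes of each list were in the table. Matrix, odontoblast and enamel lists lie highest, muscle and adipocyte lists lowest, and the enamel matrix list has its highest point in library 49.

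The 14 reference genes differed widely in level and in steadiness. *Eef1a1* (3936 ± 601 TPM, SD 0.14 log2), *Pgk1* (131 ± 19.0 TPM, SD 0.15 log2) and *Sdha* (256 ± 36.3 TPM, SD 0.16 log2) were among the steadier ones. *Tbp* (7.45 ± 0.951 TPM), *Ywhaz* (332 ± 40.2 TPM) and *Gusb* (77.9 ± 11.3 TPM) had SDs from 0.21 to 0.23 log2. *Hprt* (234 ± 34.3 TPM), *Ppia* (355 ± 60.0 TPM) and *B2m* (1456 ± 250.1 TPM) had SDs from 0.29 to 0.33 log2. *Actb* (1238 ± 276 TPM) and *Rpl27* (464 ± 114 TPM) varied more, with SDs of 0.42 and 0.44 log2.

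*Gapdh*, the glycolytic enzyme gene widely used as a reference, was the exception. It was listed at 3.28, 1.52, 5.93 and 2.61 TPM, rank 11340 of the listed genes, on 19 to 69 reads per library, with an SD of 0.79 log2. How the counting treated reads that also match other *Gapdh*-like sequences was not given in the sources used here, so this level is uncertain.

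The spread between control libraries exceeded counting error for most genes. The median SD was 0.25 log2, against a median of 0.08 log2 that counting reads alone would give, and 5.70% of the genes were at or under their counting SD. The ratio of the observed to the counting SD grew with level, as the counting SD fell. Among the 1584 genes with a mean from 1 to 3 log2 the median SD was 0.40 against 0.20 from counting. It was 0.27 against 0.11 from 3 to 5 log2, 0.21 against 0.06 from 5 to 7 log2 and 0.21 against 0.03 from 7 to 9 log2, and among the 22 genes at or above 11 log2 it was 0.30 against 0.0081. An SD above 1 log2 was found for 98 genes (0.807%), of which 9 had a mean of at least 5 log2. This count was 48 with 5 reads added before the log2, 56 by the scaled median absolute deviation and 28 among genes with a mean of at least 3 log2.

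**Figure D4:**
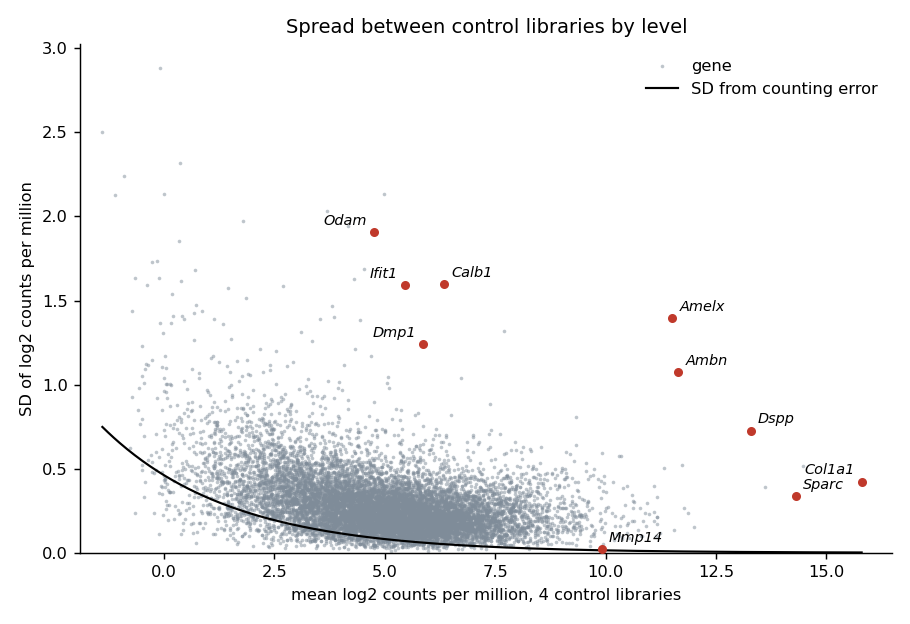
SD of the log2 values over the 4 control libraries against their mean, with a grey point for each listed gene, a black line for the SD that counting error alone gives at the mean depth, and 10 named genes in red. Most genes lie above the line, *Amelx*, *Ambn* and *Dspp* stand out among the high genes, and *Mmp14* lies near the line.

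Across genes, Pearson's r of the log2 values was 0.957 for libraries 49 and 52, the least alike pair, and 0.979 for libraries 51 and 52, the most alike. The number 4 libraries gave 0.971, which was not the highest value. Genes are not independent replicates, so these are descriptions. At least 2-fold differences were found for 2.54% of the genes between libraries 51 and 52 and for 6.63% between libraries 49 and 52. Chi-square per degree of freedom was 19.1 to 59.6 over the 6 pairs, so no pair of libraries agreed within read-counting noise. This does not tell whether any of them were amplified from the same RNA. The first principal component held 50.1% of the variance, with scores of -29.9 and -13.4 for libraries 49 and 50 and of 13.6 and 29.7 for libraries 51 and 52.

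Genes with the largest spread among those with a mean of at least 5 log2 ran from an SD of 0.75 to 1.60 log2. Enamel-related genes held many of the first places, with *Calb1* at 1.60, *Amelx* at 1.40, *Enam* at 1.32 and *Ambn* at 1.07 log2. The interferon-induced gene *Ifit1* had an SD of 1.59 log2 and the dentin gene *Dmp1* of 1.24 log2. The 20 genes also included *Igfbp7*, *Prrx2*, *Sema7a*, *Mat2a*, *Rps15a*, *Usp18*, *Taf10*, *D10Jhu81e*, *Hmgb1*, *Hba-a2*, *Psap*, *H19*, *Chp2* and *Slc35g1*. Of the 20, 10 were highest in library 49 and 7 in library 52, where 24.8% and 16.6% of all listed genes were. For 14 of the 20 the number 4 libraries lay on one side of the others (7 above and 7 below), against 47.3% of all genes.

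Several of these separated the number 4 libraries from the others by a wide gap. *Igfbp7*, which encodes a secreted binding protein, was at 438, 558, 130.5 and 201 TPM. *Prrx2*, a mesenchymal homeobox gene, was at 96.6, 101, 34.1 and 28.3 TPM. *Psap*, which encodes the lysosomal protein prosaposin, went the other way with 386, 538, 1336 and 1246 TPM. *Sema7a*, a membrane-bound semaphorin gene, was high in library 52, at 15.6, 22.2, 36.1 and 88.9 TPM. *Mat2a*, a methionine adenosyltransferase gene, was low in library 51 alone, at 29.0, 33.6, 9.27 and 40.4 TPM. *H19*, an imprinted non-coding RNA gene, was high in library 49 alone, at 99.5, 40.9, 37.1 and 34.1 TPM.

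The 10 steadiest genes of that level were *Zfp68*, *Srd5a1*, *Smarce1*, *Ap5s1*, *Cybrd1*, *Ndfip1*, *Mmp14*, *Reep3*, *Igsf8* and *Rbck1*. Their SDs were 0.0081 to 0.0256 log2, and 9 of the 10 were below their own counting SD, though they were picked for small SDs. *Mmp14*, a membrane metalloprotease of collagen turnover, was the highest of them in level, with log2 values of 9.92, 9.93, 9.92 and 9.88.

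Genes of the interferon response were high in library 52. This list of 29 textbook genes was drawn up after *Ifit1* and *Usp18* were seen among the variable genes, so it is no independent evidence. Of its 27 listed members 23 were highest in library 52, against 16.6% of all listed genes, and the list summed to 826, 877, 849 and 2136 TPM in libraries 49, 50, 51 and 52. Without library 52 its mean sum was 851 TPM. *Ifit1* was at 26.9, 21.9, 50.2 and 276 TPM, resting on 232, 176, 375 and 2182 reads. *Isg15*, a ubiquitin-like modifier, was at 95.6, 83.6, 73.3 and 302 TPM, and *Iigp1*, an interferon-induced GTPase gene, at 8.35, 9.43, 10.4 and 51.1 TPM. The other 3 libraries lay close together for both.

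Not every member shared this. *Bst2* was at 164, 174, 148 and 145 TPM and *Ifi35* at 100.1, 87.9, 82.1 and 99.8 TPM, and library 52 did not stand apart for either. The element GAAANNGAAA, searched on both strands of the 250 bases before the start, was found in 13 of the 21 listed members with a sequence (61.9%), against 2.90% of the 9556 listed genes with one. It was found in 6 of 58 ribosomal protein genes with a sequence (10.3%). The list was made of textbook interferon genes, so its share is no evidence about library 52. As for the box, the matches describe the letters and are not evidence of use. *Ifit1* holds 2 such matches and *Isg15* 3 overlapping ones in the stretches printed above. The transcription factor gene *Irf7* was at 38.4, 48.5, 36.2 and 96.0 TPM, highest in library 52.

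Ribosomal protein genes were highest in library 49 and lowest in library 52 for the most part. The 78 genes of the cytosolic ribosome took 8.02%, 7.22%, 5.76% and 5.14% of the TPM in libraries 49, 50, 51 and 52. Their median deviation from the 4-library mean was 0.45, 0.22, -0.23 and -0.43 log2. By log2 value, 61 of the 78 were highest in library 49 and lowest in library 52, against 14.8% of all listed genes, and 73 had the number 4 libraries on one side of the others, against 47.3%. Gene length moved in the same direction: for the 2430 genes with the shortest summed exons (median 1727 bases) the median deviation was 0.13, 0.11, -0.04 and -0.20 log2, and for the 2429 with the longest (median 9917 bases) it was -0.05, 0.02, 0.09 and -0.05 log2. The part of length in the ribosomal protein levels was not tested.

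**Figure D5:**
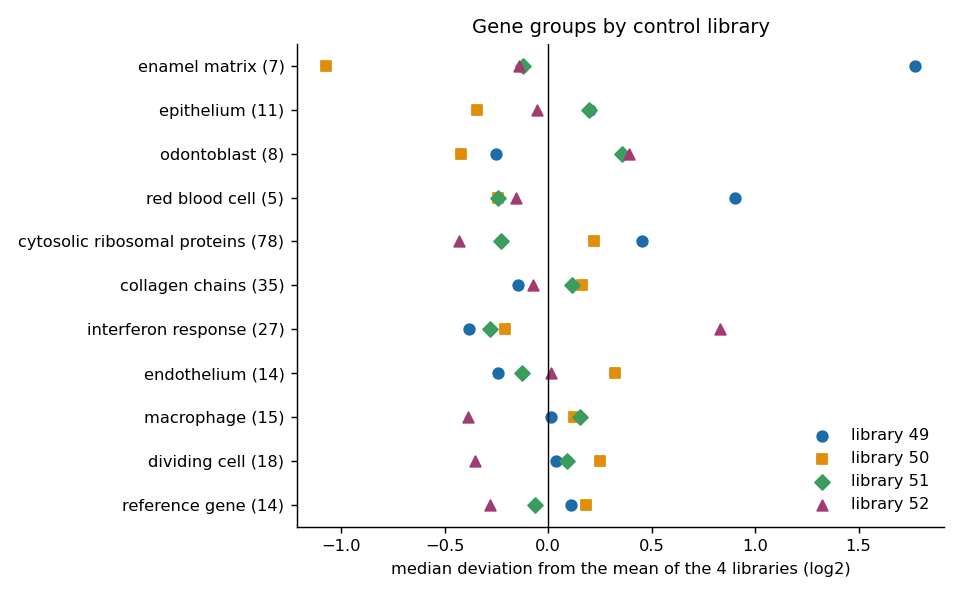
Median deviation (log2) of the members of 11 gene groups from each gene's mean over the 4 control libraries, with the number of listed members in brackets. Library 49 is high for enamel matrix, red blood cell and ribosomal protein genes, library 52 for interferon response genes, and libraries 51 and 52 for odontoblast genes.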

How the data were processed

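RNA-Seq of P7 pulp was deposited as 1 table of voom values. Per the labels and methods, the authors trimmed reads with fastp 0.21.0 and aligned them with HISAT2 2.1.0. The labels name the build GRCm38.p5, whereas the methods name a mouse genome but print GRCh38, a human build name. Reads were counted with featureCounts (Subread 2.0.1) with GENCODE M14. The authors kept genes by the CLEAR workflow, meant to retain transcripts that can be quantified at low input, and passed the counts to limma. The deposited values are log2 reads per 1000000 reads with 0.5 reads added. From the 4 control columns whole reads were recovered for all 48592 values, the farthest 2.83e-08 from a whole number. Depth was 9511517 to 10227345 reads, and intervals for counting error cover reads, not molecules. Gene names, positions and the union of exons came from GENCODE M21 (GRCm38), with 12144 of 12148 IDs matched. TPM was reads per exon length scaled over the listed genes, so genes not listed are outside it.

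Nothing was tested between genotypes. Named genes were the 6 markers, the 25 highest by TPM, up to 4 per list, the 20 largest and 10 smallest SDs at a mean of at least 5 log2, and all odontoblast, enamel matrix and reference genes. The interferon list, the collagen and ribosomal protein families and the genes beside them were added after values were seen. The members and lists were chosen with earlier results of these data known. Read recovery and SDs were tested on simulated data. Python 3 with numpy, pandas and scipy was used. Alternatives were other gene lengths, totals, filters, added reads and each library left out. Some genes that the rule names are withheld and are not reported here.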

Additional observations from a re-analysis of the deposited data

Results flagged for a closer look

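Among 202 levels and shares checked, 15 had 1 library whose gap to its nearest neighbour, as a part of the range of the 4 libraries, passed Dixon's critical value. This serves to mark values and is no independent support: about 1 in 20 would be marked by chance, the interferon list was drawn up after the spread of *Ifit1* and *Usp18* was seen, and *Mat2a* was named for its large SD.

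Library 52 stood apart for 7. Its log2 value was high for the interferon genes *Ifit3* (6.93), *Usp18* (6.53), *Iigp1* (6.44), *Ifit3b* (5.60) and *Igtp* (5.44), its interferon list sum was 2136 TPM, and its log2 value was low for *Itga2b* (2.02).

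Library 49 stood apart for 4, all high. These were *Hbb-bs* (9.07 log2), *Junb* (5.81 log2), *Stmn2* (3.78 log2) and the sum of the enamel matrix list (53005 TPM).

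Library 50 stood apart for *Itm2b*, which was low at 11.77 log2, for *Dlx3*, which was high at 9.10 log2, and for the summed reference genes, high at 9391 TPM. Library 51 stood apart for *Mat2a*, low at 3.63 log2.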

How the results depend on the processing

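No paired analysis was possible because the results describe 1 group, with no second group to pair it with. Of the 60 alternative values of the main results, 52 stayed within a set limit. This was the SD between libraries for shares and 1.5 times for counts. For the median SD and the smallest r it was an SD over pairs of libraries. Shares could not pass their limit when a library was left out, since that shifts a mean of 4 by less than the SD. The enamel matrix share of reads thus counts as stayed, at 0.983% and, without library 49, 0.534%. The collagen share of TPM was 3.97%, and it was 15.2% with the median transcript length and 9.14% with no length, where long genes count for more. Leaving out each library in turn moved it from 3.43% to 4.40%. The smallest pairwise r was 0.957, and 0.947 among genes with a mean of at least 3 log2. It ranged from 0.957 to 0.967 with each library left out, the highest without library 49. The median SD of 0.248 log2 became 0.191 as a scaled median absolute deviation. The 98 genes with an SD above 1 became 28 at a mean of at least 3 log2, 48 with 5 reads added and 56 by the scaled median absolute deviation. The last counts, the longest transcript length and their settings were added after seeing the data. Of 285 levels of markers and lists, 226 stayed within their SD. These include all 128 levels with a library left out, which could not move for the same reason as the shares. The 59 that moved were 25 of 32 with the median transcript length, 25 of 32 with no length and 9 of 32 with the longest transcript. With no mitochondrially encoded gene listed, that part of the change of total had nothing to remove. With 4 libraries and 9511517 to 10227345 reads each, depth limits only the low genes.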
